A study of Rattus norvegicus with 70 samples.

Results

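Visceral adipose tissue (VAT) of female Sprague-Dawley rats, an outbred laboratory stock, was compared between rats that had inhaled PCB 52 and rats of a sham group. The comparison took the VAT libraries with even title numbers, all labelled female: libraries 14, 16, 18, 20, 22 and 24 for PCB 52, and libraries 2, 4, 6, 8, 10 and 12 for sham. These are 12 of the 70 libraries of the series, which also covers male rats and brown (BAT) and subcutaneous (SAT) adipose tissue. Rats of both groups arrived at 28 days of age and had 8 days to acclimate, and females entered the exposure at 42 days of age. Exposure ran through the nose for 4 h a day over 28 days, with filtered air at 12 L/min drawn across glass beads that carried PCB 52. The labels do not say what the sham rats breathed, which abdominal fat pad was taken as VAT, or what dose was reached. Each library was taken to be 1 rat of a random assignment, so p-values below measure the spread between these libraries. In whole tissue, fewer cells of a type and less RNA per cell cannot be told apart.

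PCB 52 is a polychlorinated biphenyl, one of the lower-chlorinated congeners that evaporate into indoor air. Visceral fat stores triglyceride around the abdominal organs and responds to insulin, catecholamines and glucocorticoids. Glucocorticoids, the adrenal steroids of which corticosterone is the main one in rats, bind the glucocorticoid receptor (Nr3c1). The bound receptor enters the nucleus and induces genes that include Fkbp5, Tsc22d3, Per1, Klf9 and the metallothioneins Mt1 and Mt2A. The enzyme encoded by Hsd11b1 regenerates active hormone inside adipocytes.

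The 12 libraries held 6470081 to 9707132 counts, so a count of 0 allowed up to 0.345 to 0.487 CPM, the unit of scaled counts, in 1 library. These limits cover counting error only. CPM stands for counts over the library total, which was first adjusted by TMM. The tissue label was checked against 21 mature adipocyte markers in the count table, whose summed level was 57670 to 74070 CPM in PCB 52 libraries and 57600 to 89440 CPM in sham libraries. Adipoq, the gene of the adipocyte hormone adiponectin, had 6168, 6976 and 10290 CPM as lowest, median and highest PCB 52 libraries, against 5631, 6664 and 6951 CPM in sham libraries. Sham libraries 4 and 8 stood apart on the first principal component, which held 25.3% of the variance, and PCB 52 library 20 on the second, which held 23.3%. Results are therefore given with and without sham libraries 4 and 8.

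No gene passed a Benjamini-Hochberg adjusted p of 0.05 in edgeR's quasi-likelihood test, 0% of 11143 genes tested, and the lowest adjusted p was 0.34. At an unadjusted p of 0.05, 651 genes were lower in PCB 52 libraries, 5.84% of those tested, and 415 were higher, 3.72%. limma voom called 0 genes as well, with 968 at an unadjusted p of 0.05. Without sham libraries 4 and 8, edgeR again called 0% of 11269 genes, and 419 genes (3.72%) were lower and 194 (1.72%) higher at an unadjusted p of 0.05. DESeq2 with all 12 libraries called 51 genes, 0.383% of 13300 with an adjusted p, of which 43 were lower and 8 higher, but it called 2 genes, among them Errfi1, without sham libraries 4 and 8. The ranges of the groups did not overlap for 27 genes lower (0.242%) and 22 genes higher (0.197%) in PCB 52 libraries. Genes below are thus described by their values, and none of them passed the edgeR threshold.

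The 15 genes of smallest p held 12 that were lower and 3 that were higher in PCB 52 libraries, all at an adjusted p of 0.34 by edgeR, and at 0.793 without sham libraries 4 and 8. Slc25a25, which encodes a mitochondrial carrier that exchanges ATP-magnesium for phosphate, had 17.01, 22.5 and 26.7 CPM as lowest, median and highest PCB 52 libraries, against 27.5, 43.1 and 54.5 CPM in sham libraries. All 6 PCB 52 libraries were thus below all 6 sham libraries. Its log2 fold change of PCB 52 over sham was -0.91 ± 0.18 (SE), and -0.82 ± 0.20 without sham libraries 4 and 8.

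The transporter gene Slc4a7, a sodium bicarbonate cotransporter, had 5.86, 9.73 and 15.4 CPM in PCB 52 libraries, against 15.8, 19.9 and 23.2 CPM in sham libraries (log2 fold change -0.95 ± 0.19). Retreg1, a receptor for autophagy of the endoplasmic reticulum, had 5.82, 7.79 and 9.44 CPM in PCB 52 libraries, against 9.995, 17.2 and 21.3 CPM in sham libraries (log2 fold change -1.07 ± 0.21). Neither gene overlapped between groups, and Ccdc134 did not overlap either, with 7.77 to 11.4 CPM in PCB 52 libraries and 12.5 to 16.7 CPM in sham libraries. Retreg1 was highest in sham libraries 4, 8 and 10, and its log2 fold change was -0.85 ± 0.22 without sham libraries 4 and 8, and -0.59 without those 3 libraries. Other genes of the 15 that were lower in PCB 52 libraries overlapped between groups: the amino acid transporter gene Slc7a6 (log2 fold change -0.94 ± 0.21), the chemokine gene Cxcl14 (-0.99 ± 0.22), the Notch-responsive repressor gene Heyl (-0.69 ± 0.15) and C11h21orf91 (-0.85 ± 0.18). C11h21orf91 was also highest in sham libraries 4, 8 and 10, with a log2 fold change of -0.62 ± 0.17 without sham libraries 4 and 8, and -0.45 without those 3 libraries.

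Akr1b10, an aldo-keto reductase that reduces aldehydes, was among the 3 that were higher. It had 5.06, 5.30 and 6.84 CPM in PCB 52 libraries, against 2.11, 2.95 and 3.70 CPM in sham libraries, with no overlap. Its log2 fold change was 0.91 ± 0.18, and 0.88 ± 0.19 without sham libraries 4 and 8; close relatives of this gene make its counts uncertain. Slc27a3, of the fatty acid transport protein family, had 41.0, 50.02 and 63.3 CPM in PCB 52 libraries, against 27.3, 33.8 and 41.5 CPM in sham libraries, so that 1 PCB 52 library lay within the sham range. Tekt3, the gene of a tektin filament protein of cilia and flagella, had 3.47, 4.82 and 9.50 CPM in PCB 52 libraries, against 0.130, 1.07 and 2.61 CPM in sham libraries. It did not overlap between groups, but its lowest values were in sham libraries 4 and 8, and its log2 fold change was 2.22 ± 0.50 with them and 1.73 ± 0.40 without them.

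**Figure D1:**
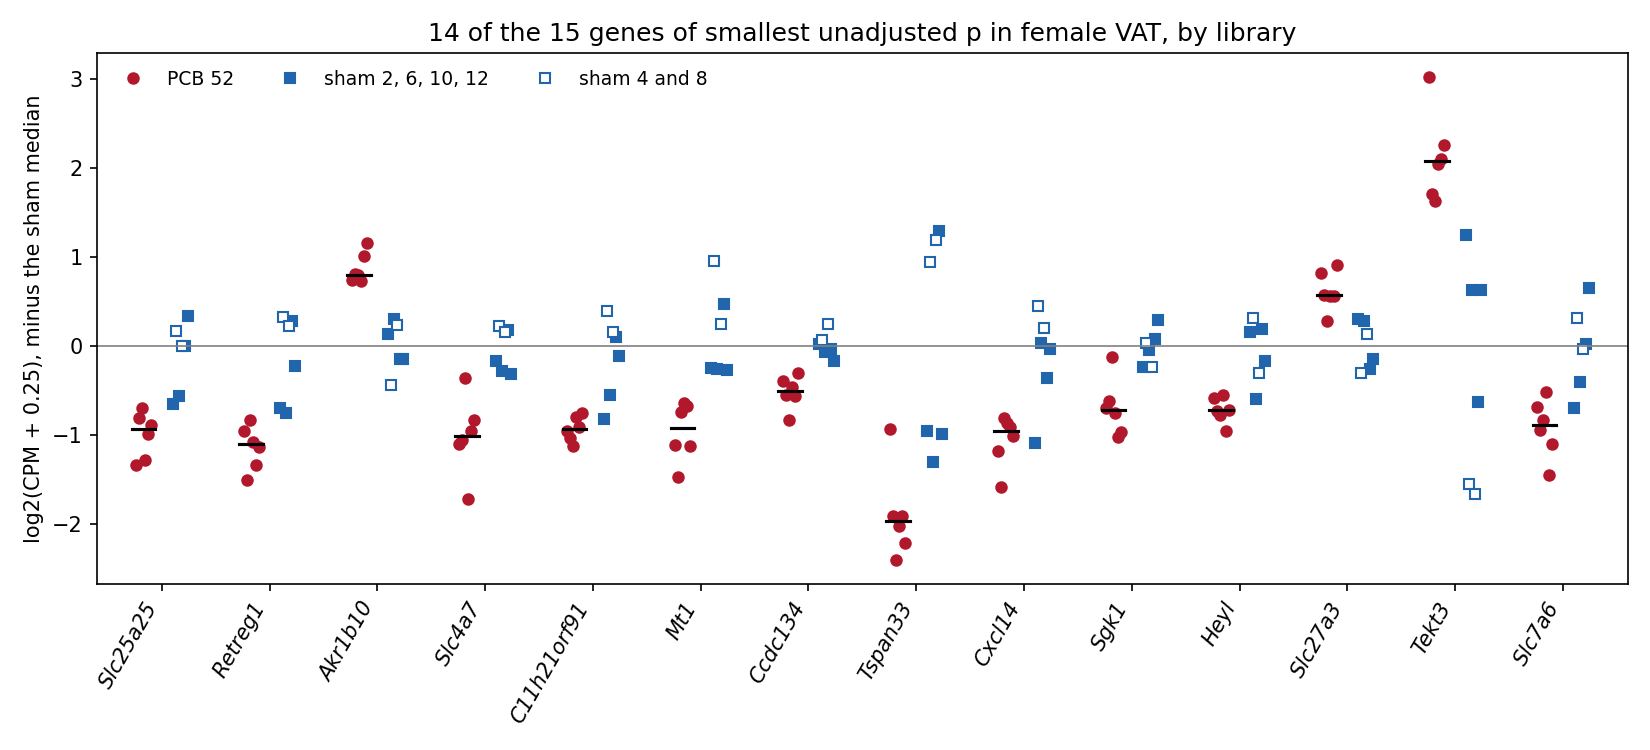
Levels of 14 of the 15 genes of smallest unadjusted p in female VAT, 1 point per library (6 PCB 52, 6 sham), as log2(CPM + 0.25) minus the median of the sham libraries; black bars are PCB 52 medians. PCB 52 libraries lie below the sham libraries for Slc25a25, Retreg1, Slc4a7, Mt1 and Ccdc134 and above them for Akr1b10 and Tekt3, while the groups overlap for the other genes.

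Mt1 and Mt2A encode metallothioneins, small proteins that bind zinc and copper and whose genes respond to metals and to glucocorticoids. Mt1 had 2.15, 3.29 and 4.02 CPM in PCB 52 libraries, against 5.27, 6.50 and 12.7 CPM in sham libraries. No PCB 52 library reached the lowest sham library. The log2 fold change of Mt1 was -1.20 ± 0.26, and -0.93 ± 0.24 without sham libraries 4 and 8, with sham library 4 the highest of all. It was -0.70 without sham libraries 4, 8 and 10, the 3 highest. Mt2A had 2.41, 4.49 and 10.7 CPM in PCB 52 libraries, against 7.65, 14.4 and 25.9 CPM in sham libraries, with a log2 fold change of -1.35 ± 0.37, and -1.47 ± 0.39 without sham libraries 4 and 8. For Mt2A, PCB 52 libraries 18 and 20 lay within the sham range and the other 4 lay below it.

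The start regions of both genes are shown because both genes were lower in PCB 52 libraries and metallothionein promoters are known for metal response elements, the sites of the zinc-sensing factor MTF1. The windows are from RefSeq on build GRCr8 of the rat genome, each with 250 bases before and 50 bases after the start, on the minus strand at chr19:10832926-10833225 for Mt1 and at chr19:10838659-10838958 for Mt2A. Capitals mark the metal response core TGCGCNC or TGCACNC on either strand.
Mt1: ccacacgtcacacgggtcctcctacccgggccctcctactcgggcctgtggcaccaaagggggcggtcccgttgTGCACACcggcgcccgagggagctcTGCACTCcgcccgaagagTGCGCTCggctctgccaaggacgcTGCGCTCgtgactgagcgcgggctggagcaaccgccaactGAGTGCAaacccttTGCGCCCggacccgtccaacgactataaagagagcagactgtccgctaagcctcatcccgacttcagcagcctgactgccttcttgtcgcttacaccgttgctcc
Mt2A: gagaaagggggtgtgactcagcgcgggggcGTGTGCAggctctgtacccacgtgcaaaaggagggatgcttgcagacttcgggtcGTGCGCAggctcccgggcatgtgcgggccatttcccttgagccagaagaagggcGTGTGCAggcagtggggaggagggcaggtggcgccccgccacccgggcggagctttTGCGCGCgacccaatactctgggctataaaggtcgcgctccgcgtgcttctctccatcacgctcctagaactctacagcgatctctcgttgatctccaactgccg
The Mt1 window held 6 cores, 3 of TGCGCNC and 3 of TGCACNC, and the Mt2A window held 4, 2 of each form. Each window also held 1 TATAAA. At least 1 metal response core was present in 24.2% of 33469 promoter windows of the same length, so that the presence of a core is common. The match describes letters only. This motif was added after the values of these genes were seen.

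The metallothioneins belong to a list of 22 genes of the glucocorticoid response, of which 21 were tested. The remaining member, the liver enzyme gene Tat, had 0 counts in all 12 libraries. Of the 21, 19 had a log2 fold change below 0. At an unadjusted p of 0.05, 14 were lower and 0 higher, where 5.84% of all genes tested were lower. The median log2 fold change of the list was -0.62, against 0.0076 over all genes tested. Without sham libraries 4 and 8 the counts were 18 below 0 and 12 lower at an unadjusted p of 0.05, where 3.72% of all genes were lower, and the median was -0.70. Without sham libraries 8 and 10 the median was -0.65, and without sham libraries 4, 8 and 10 it was -0.63 with 10 members lower and 0 higher at an unadjusted p of 0.05, where 1.79% and 0.996% of all genes were. Summed over the list, PCB 52 libraries held 1699 to 2367 CPM with a median of 1909 CPM, and sham libraries 2184 to 3244 CPM with a median of 2560 CPM. With all libraries DESeq2 called 6 of the list, where it called 51 genes in all, 0.383% of 13300. Without sham libraries 4 and 8, Errfi1 alone of the 6 was called.

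Kinase and kinase-regulator genes of the list were lower in most PCB 52 libraries. Sgk1, the serum and glucocorticoid regulated kinase, had 30.2, 37.3 and 56.5 CPM in PCB 52 libraries, against 52.3, 61.6 and 75.4 CPM in sham libraries. PCB 52 library 18 lay within the sham range and the other 5 lay below it. The log2 fold change of Sgk1 was -0.66 ± 0.15, and -0.70 ± 0.17 without sham libraries 4 and 8. Errfi1, an inhibitor of epidermal growth factor receptor signalling, had 51.7, 57.8 and 100.5 CPM in PCB 52 libraries, against 79.6, 112.5 and 198 CPM in sham libraries. Here too PCB 52 library 18 was the only 1 inside the sham range. The log2 fold change of Errfi1 was -0.88 ± 0.21, and -1.06 ± 0.21 without sham libraries 4 and 8. Pdk4, which inhibits the pyruvate dehydrogenase complex and so spares glucose, had 20.98, 29.6 and 40.4 CPM in PCB 52 libraries, against 36.6, 61.9 and 264 CPM in sham libraries. The value of 264 CPM belonged to sham library 4, and the log2 fold change of Pdk4 was -1.64 ± 0.44 with all libraries and -0.74 ± 0.24 without sham libraries 4 and 8.

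Klf9, Per1, Zbtb16 and Cebpd are transcription factor or clock genes of the list. Klf9, a Krüppel-like factor, had 63.1, 78.7 and 96.8 CPM in PCB 52 libraries, against 101.8, 109.7 and 132 CPM in sham libraries. The groups did not overlap, and the log2 fold change was -0.47 ± 0.11 both with all libraries and, with an SE of 0.13, without sham libraries 4 and 8. Per1, a clock gene with a glucocorticoid-responsive promoter, had 69.3, 110.5 and 155 CPM in PCB 52 libraries, against 133, 191 and 274 CPM in sham libraries (log2 fold change -0.84 ± 0.21). PCB 52 library 18 alone lay within the sham range of Per1. Zbtb16, a zinc finger repressor, had 9.89, 34.3 and 71.2 CPM in PCB 52 libraries, against 51.0, 71.2 and 98.6 CPM in sham libraries (log2 fold change -1.03 ± 0.34), again with only PCB 52 library 18 inside the sham range. Cebpd, an early regulator of adipocyte differentiation, had 15.6, 24.9 and 36.3 CPM in PCB 52 libraries, against 21.9, 40.1 and 53.9 CPM in sham libraries, with wide overlap.

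Feedback and anti-inflammatory genes of the list follow. Fkbp5, a chaperone that lowers the affinity of the glucocorticoid receptor for its hormone, had 39.4, 76.3 and 143 CPM in PCB 52 libraries, against 97.4, 150 and 265 CPM in sham libraries. PCB 52 library 20 was inside the sham range and the other 5 below it, and the log2 fold change of -1.02 ± 0.32 was -0.74 ± 0.33 without sham libraries 4 and 8. Tsc22d3, known as GILZ, had 110.9, 160 and 258 CPM in PCB 52 libraries, against 172, 256 and 365 CPM in sham libraries (log2 fold change -0.69 ± 0.21). Nfkbia, which encodes the inhibitor of NF-kappa-B, had a log2 fold change of -0.62 ± 0.23, Ddit4, an inhibitor of mTOR signalling, -0.74 ± 0.27, and the kinase gene Map3k6 -0.44 ± 0.20. Members with p above 0.05 included Dusp1 (-0.23 ± 0.23), Angptl4, Lcn2, Gadd45b and Sult1a1, of which Gadd45b and Sult1a1 changed sign under some alternatives. The receptor gene Nr3c1 had 189, 240 and 251 CPM in PCB 52 libraries, against 148, 214 and 220 CPM in sham libraries (log2 fold change 0.22 ± 0.12). Hsd11b1 had 42.5, 49.4 and 107.5 CPM in PCB 52 libraries, against 20.6, 42.0 and 55.7 CPM in sham libraries (log2 fold change 0.55 ± 0.26). These were the 2 members above 0, and neither passed an unadjusted p of 0.05. Tsc22d3, Fkbp5, Mt2A, Zbtb16, Ddit4, Map3k6, Dusp1 and Nr3c1 were named after their values were seen.

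**Figure D2:**
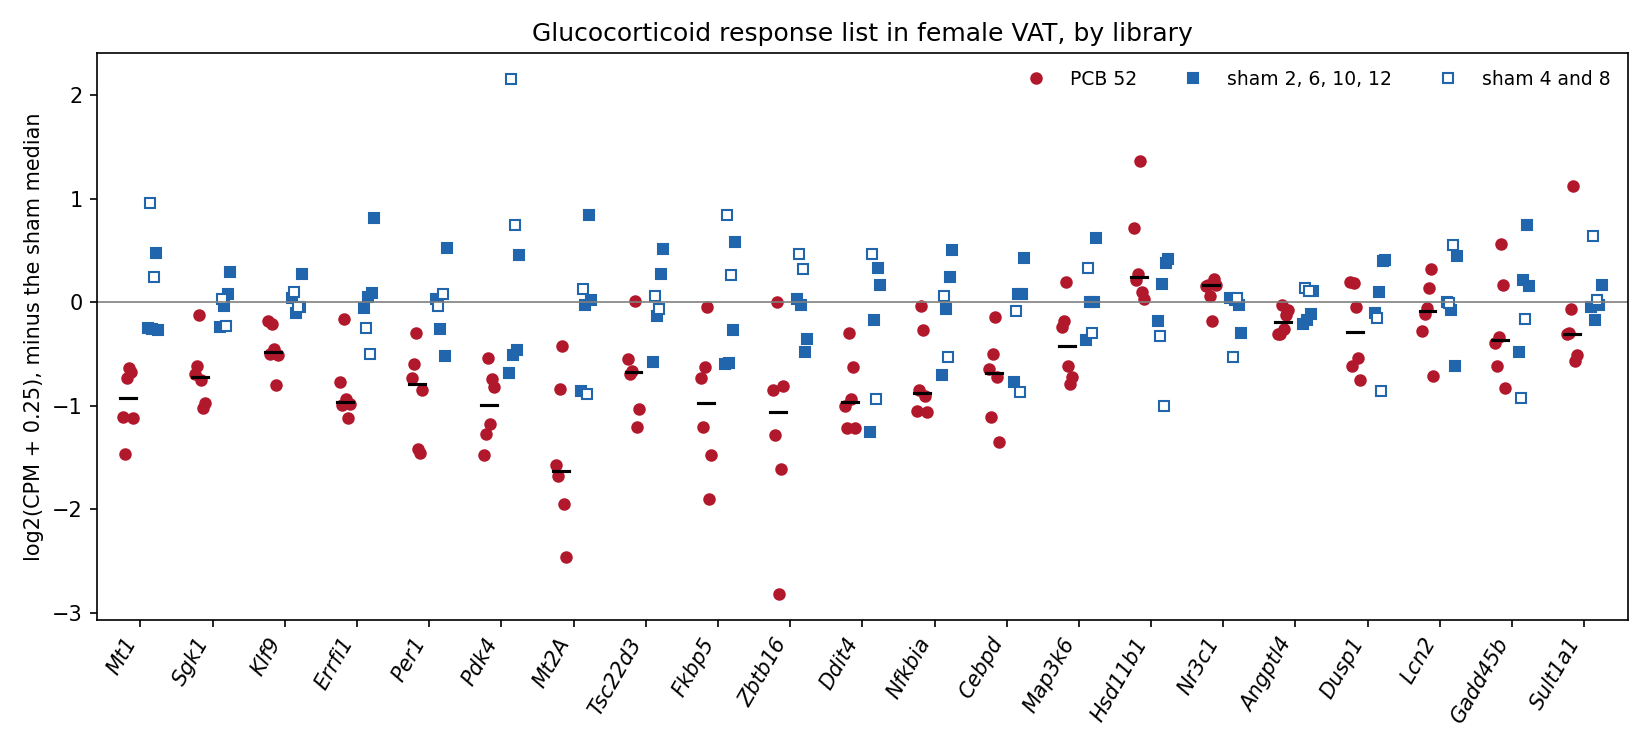
Levels of the 21 tested members of the glucocorticoid response list in female VAT, 1 point per library (6 PCB 52, 6 sham), as log2(CPM + 0.25) minus the sham median; black bars are PCB 52 medians and open squares are sham libraries 4 and 8. The PCB 52 median lies below 0 for 19 of the 21 genes, the groups do not overlap for Mt1 and Klf9, and PCB 52 library 18 or 20 is often the highest of its group.

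Among the 14 members lower at an unadjusted p of 0.05, 12 genes had promoter windows, 16 windows in all. Searched on both strands, the GC box GGGCGG was in 11 of the 16 windows, against 33.1% of all windows, and the TATA box TATAAA in 7, against 14.2%. The CCAAT box CCAAT was in 7, against 37.5%, the aryl hydrocarbon response core GCGTG in 8, against 29.7%, and the antioxidant response element TGACNNNGC in 4, against 12.1%. The STAT site TTCNNNGAA and the E-box CACGTG were each in 1 window, against 8.87% and 6.42%, and the cAMP response element TGACGTCA and the D-box TTACGTAA were in 0, against 1.83% and 0.12%. Windows of 1 gene overlap and are not independent, and these shares carry no test.

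The same list was read in the fits of other depots and of male rats, each on its own libraries. In female BAT, 20 of 21 members were below 0, 8 lower and 1 higher at an unadjusted p of 0.05, where 2.17% and 1.46% of all genes were, with a median log2 fold change of -0.45. In female SAT, 19 of 21 were below 0, 4 lower and 0 higher at an unadjusted p of 0.05, where 4.61% and 0.507% of all genes were, with a median of -0.37. Without SAT sham library 8, in which 705 of 10673 expressed genes had 0 counts, 20 were below 0, 5 lower and 0 higher at that p, where 0.694% and 1.67% of all genes were, and the median was -0.52. In male VAT, 13 of 21 were below 0, 2 lower and 0 higher at an unadjusted p of 0.05, where 3.9% and 2.39% of all genes were, with a median of -0.15. Without male VAT PCB 52 library 13, in which 541 of 10367 expressed genes had 0 counts, 12 were below 0, 4 were lower and 2 higher at an unadjusted p of 0.05, where 5.95% and 4.76% of all genes were, and the median was -0.060. The female depots may come from the same rats, since title numbers recur across depots, so they are not independent samples.

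Whether the PCB 52 effect in female VAT differed from that elsewhere was tested by interaction terms. Against male VAT, 0% of 11664 genes passed the adjusted threshold in edgeR and 10.7% had an unadjusted p of 0.05. Of the glucocorticoid list, 6 members had a lower and 1 a higher effect in female VAT at an unadjusted p of 0.05, where 4.89% and 5.77% of all genes did. Without female sham libraries 4 and 8, 3 had a lower and 0 a higher effect, where 3.92% and 4.21% of all genes did. Klf9 had a log2 fold change of -0.47 ± 0.11 in female VAT and 0.15 ± 0.13 in male VAT, and the difference was -0.62 ± 0.17, with an adjusted p of 0.41 by edgeR. On the log2 scale, Pdk4 differed by -1.87 ± 0.58, Zbtb16 by -1.51 ± 0.53, Fkbp5 by -1.24 ± 0.48 and Per1 by -0.87 ± 0.39. Their adjusted p were 0.41 to 0.46 by edgeR. These differences include female sham libraries 4 and 8 and male VAT PCB 52 library 13. Without sham libraries 4 and 8 the female VAT fold changes of Pdk4 and Fkbp5 were smaller in size, as given above, while that of Klf9 was the same. Without male VAT PCB 52 library 13, 0 genes were called, and 1619 in place of 1243 genes had an unadjusted p of 0.05. Errfi1 was close in both sexes, at -0.88 ± 0.21 in female VAT and -0.65 ± 0.19 in male VAT, a difference of -0.22 ± 0.30. Age at the start also differed between the sexes, so that sex and age cannot be told apart.

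Against female BAT, 0% of 11541 genes passed the adjusted threshold and 3.44% had an unadjusted p of 0.05. Of the glucocorticoid list, 4 had a lower and 1 a higher effect in VAT at that p, where 2.42% and 1.02% of all genes did. These counts include VAT sham libraries 4 and 8. Without them, 0 genes were called and 290 in place of 397 genes had that p. Mt1 had a log2 fold change of -1.20 ± 0.26 in female VAT and -0.25 ± 0.33 in female BAT, a difference of -0.97 ± 0.45, while Fkbp5 had -1.02 ± 0.32 in VAT and -1.12 ± 0.37 in BAT. Against female SAT, 0% of 12129 genes were called and 9.48% lay under an unadjusted p of 0.05, and the list held 0 lower and 1 higher, where 2.16% and 7.32% of all genes did. Mt1 had -1.48 ± 0.50 and Mt2A -1.65 ± 0.53 in female SAT. These SAT counts and values include SAT sham library 8. Without it, 469 in place of 1150 genes had an unadjusted p of 0.05 in the SAT interaction. The split by direction also turned, with 123 higher and 346 lower in place of 888 higher and 262 lower.

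**Figure D3:**
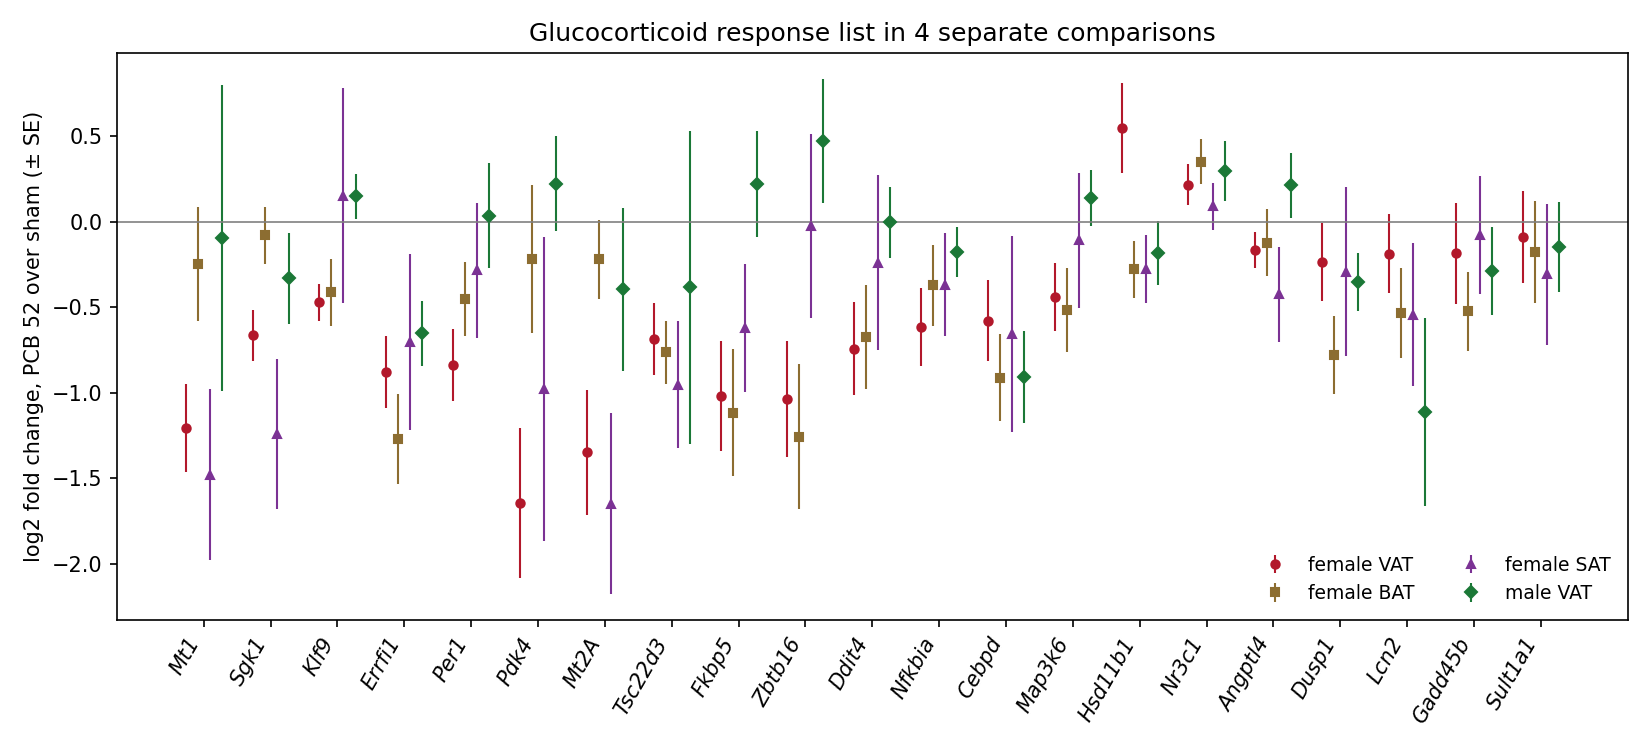
Log2 fold change of PCB 52 over sham (± SE) for the 21 members of the glucocorticoid response list in female VAT, female BAT, female SAT and male VAT, each from its own fit with 5 or 6 libraries a group. Female VAT and female BAT values are below 0 for most genes, while male VAT values scatter about 0, as for Klf9 at 0.15 and Pdk4 at 0.22.

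The 5 genes of smallest p in each interaction failed the adjusted threshold as well. Against male VAT these were Bmyc, with log2 fold changes of 0.16 ± 0.09 in female VAT and -0.72 ± 0.18 in male VAT, Galnt16 (female 0.42 ± 0.20, male -1.04 ± 0.23), Slc35g3 (female -0.51 ± 0.37, male 1.77 ± 0.33), Duoxa1 (female 0.41 ± 0.18, male -0.97 ± 0.27) and Slc25a25 (female -0.91 ± 0.18, male 0.16 ± 0.16). Against female BAT they were Ucp1, Cox8b, Dcp2, Polr1b and Xrn1. The first pair are brown fat genes present in sham libraries 4 and 8, described below, and the RNA decay genes Dcp2 and Xrn1 had log2 fold changes of -0.52 ± 0.20 and -0.32 ± 0.12 in female VAT, against 0.78 ± 0.25 and 0.40 ± 0.15 in female BAT. Against female SAT they included Upk1a and Cldn4, which are epithelial genes, and C11h21orf91 and Tspan33.

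Immediate early genes are switched on within minutes of a stimulus, handling included. Of 25 tested, 21 had a log2 fold change below 0, with 5 lower and 0 higher at an unadjusted p of 0.05, where 5.84% of all genes were lower, and a median of -0.21. Without sham libraries 4 and 8, 21 were below 0 and 6 lower at that p, where 3.72% of all genes were, and the median was -0.34. It was -0.29 without sham libraries 8 and 10, and -0.070 without PCB 52 library 20. The orphan nuclear receptor Nr4a3 had 0.536, 1.23 and 3.33 CPM in PCB 52 libraries, against 2.72, 8.92 and 37.2 CPM in sham libraries. Sham libraries 4, 8 and 12 were the high ones, and the log2 fold change was -2.95 ± 0.69, and -1.94 ± 0.59 without libraries 4 and 8. Btg2, an antiproliferative gene, had 77.8, 90.6 and 102 CPM in PCB 52 libraries, against 86.3, 143 and 182 CPM in sham libraries (log2 fold change -0.62 ± 0.17). Nr4a1 (-0.71 ± 0.26), the mRNA-decay factor gene Zfp36 (-0.57 ± 0.24) and Klf2 (-0.40 ± 0.18) completed the 5, and Klf2 was named after its values were seen. The levels of all 5 overlapped between groups.

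Enzymes of cholesterol synthesis were on balance higher in PCB 52 libraries. Of 25 tested members of the cholesterol list, 19 had a log2 fold change above 0, and the median was 0.26, or 0.30 without sham libraries 4 and 8. At an unadjusted p of 0.05, 6 were higher and 2 lower, where 3.72% and 5.84% of all genes were, and without sham libraries 4 and 8 the counts were 3 and 0, where 1.72% and 3.72% of all genes were. Fdft1, squalene synthase, had 50.1, 67.5 and 97.0 CPM in PCB 52 libraries, against 43.2, 47.2 and 63.3 CPM in sham libraries (log2 fold change 0.51 ± 0.16). Lss, lanosterol synthase, had 85.9, 97.8 and 121 CPM in PCB 52 libraries, against 59.5, 77.1 and 94.4 CPM in sham libraries (log2 fold change 0.38 ± 0.12). PCB 52 library 22 lay within the sham range of Fdft1, and PCB 52 libraries 18, 20 and 22 within that of Lss. The later enzymes Cyp51 (0.47 ± 0.17), Sc5d (0.36 ± 0.12) and Ebp (0.26 ± 0.12) were among the other members higher at that p. The efflux transporter Abcg1 (-0.65 ± 0.24) was among the 2 lower. Without sham libraries 4 and 8 and PCB 52 library 20, 1 member was higher and 0 lower at an unadjusted p of 0.05, where 2.05% and 3.74% of all genes were. Ebp and Abcg1 were named after their values were seen.

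Insulin and glucose genes held 5 of 23 tested members lower and 0 higher at an unadjusted p of 0.05, where 5.84% of all genes were lower. With sham libraries 4 and 8 left out, 2 of the 23 were lower at that p, where 3.72% of all genes were. Foxo1, the transcription factor that insulin signalling excludes from the nucleus, had 38.2, 68.7 and 76.7 CPM in PCB 52 libraries, against 72.7, 102 and 137 CPM in sham libraries (log2 fold change -0.66 ± 0.19). PCB 52 library 20 was the lowest, and 2 PCB 52 libraries reached into the sham range. Pfkfb3, a stimulator of glycolysis, had 278, 464 and 576 CPM in PCB 52 libraries, against 425, 878 and 1451 CPM in sham libraries (log2 fold change -0.94 ± 0.28, and -0.55 ± 0.25 without sham libraries 4 and 8). Pck1, the enzyme of glyceroneogenesis in fat, had a log2 fold change of -0.67 ± 0.27, and -0.39 ± 0.27 without them. Among lipolysis genes, the beta-3 adrenergic receptor gene Adrb3 had 149, 256 and 318 CPM in PCB 52 libraries, against 132, 154 and 242 CPM in sham libraries (log2 fold change 0.56 ± 0.19, and 0.48 ± 0.22 without sham libraries 4 and 8). Pde3b, the phosphodiesterase by which insulin restrains lipolysis, had a log2 fold change of -0.60 ± 0.20, and -0.33 ± 0.16 without them. For the lipid droplet gene Cidec it was -0.59 ± 0.21, and -0.39 ± 0.19 without them.

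Several metabolic lists depended on single libraries. Of 26 fatty acid oxidation genes, 23 were below 0 with all libraries and the median log2 fold change was -0.22, while without sham libraries 4 and 8 it was 0.081 with 9 below 0. All 30 tested ribosomal protein genes were above 0, with a median of 0.12, but PCB 52 library 20 held a summed 28770 CPM of them, against 13130 to 16140 CPM in the other PCB 52 libraries and 14580 to 18010 CPM in sham libraries. The median was -0.086 without PCB 52 library 20. Of 35 respiratory chain genes, 30 were above 0 with a median of 0.12, which was 0.30 without sham libraries 4 and 8, 0.025 without sham libraries 8 and 10, and -0.0897 without PCB 52 library 20.

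**Figure D4:**
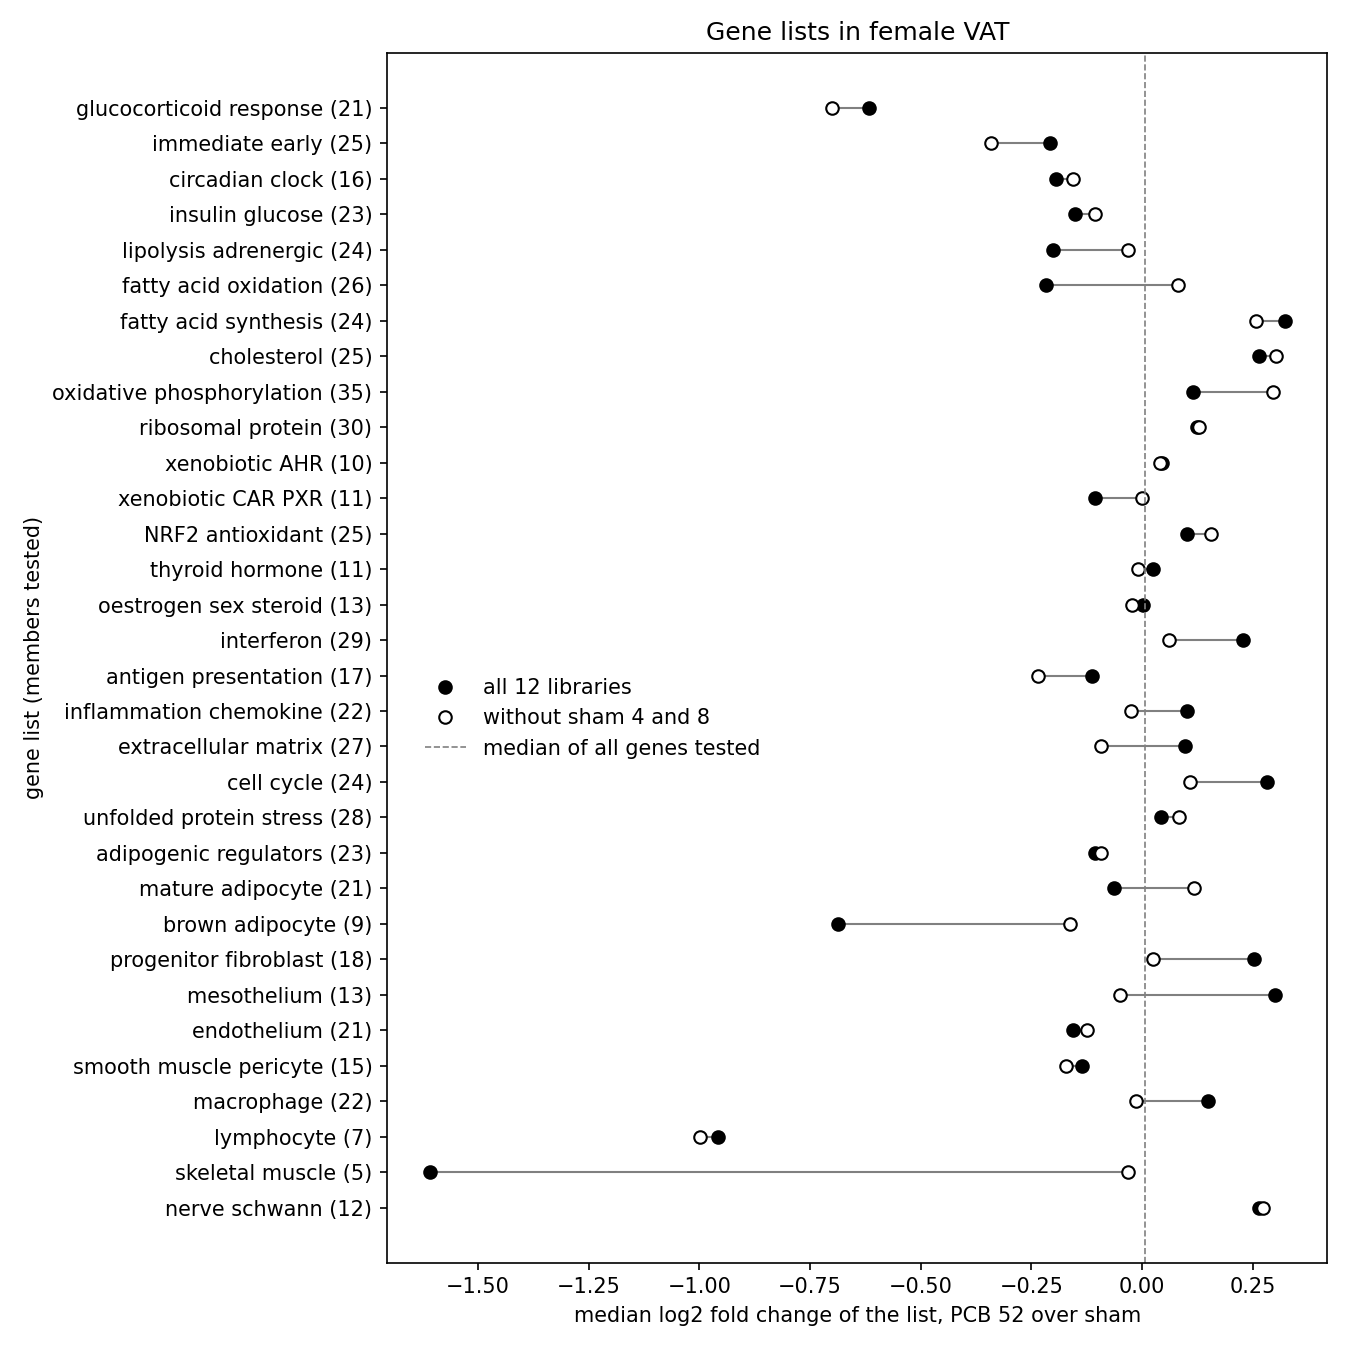
Median log2 fold change of PCB 52 over sham for chosen lists with at least 5 tested members (number in parentheses). Filled points are all 12 female VAT libraries and open points are without sham libraries 4 and 8. The dashed line is the median of all genes tested. The HOX, mast cell and neutrophil, erythroid and steroidogenic lists are not shown. The glucocorticoid response list lies at -0.62 and -0.70, while the skeletal muscle and brown adipocyte lists lie far below 0 only with sham libraries 4 and 8 included.

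Genes of foreign-compound metabolism were examined because polychlorinated biphenyls can act on the aryl hydrocarbon receptor (AHR) and on the receptors CAR and PXR. Of 10 tested members of the AHR list, 1 was higher at an unadjusted p of 0.05, where 3.72% of all genes were, and the median log2 fold change was 0.044. With sham libraries 4 and 8 left out, 0 members passed that p. Cyp1a1, the most inducible AHR target, was not tested for lack of counts, with at most 0.506 CPM in PCB 52 libraries and 0.391 CPM in sham libraries. The member past that p was Ugt1a6, a glucuronosyltransferase, with 23.9, 27.4 and 33.2 CPM in PCB 52 libraries, against 15.1, 22.4 and 27.0 CPM in sham libraries. Its log2 fold change was 0.39 ± 0.14, and 0.33 ± 0.16 without sham libraries 4 and 8, and exons shared with other Ugt1a genes make its counts uncertain. Cyp1b1 had a log2 fold change of -0.38 ± 0.18, Nqo1 0.13 ± 0.15 and Ahr -0.0032 ± 0.20. Of 11 tested members of the CAR and PXR list, Cyp2e1 was lower at an unadjusted p of 0.05, where 5.84% of all genes were, with 2.98, 7.73 and 19.7 CPM in PCB 52 libraries, against 7.69, 22.4 and 70.2 CPM in sham libraries. The highest sham value was library 4, and the log2 fold change of Cyp2e1 was -1.52 ± 0.52, and -0.70 ± 0.45 without sham libraries 4 and 8. Cyp2b1, the classic CAR target of rat liver, had 1.13, 2.91 and 12.1 CPM in PCB 52 libraries, against 0.130, 6.996 and 10.98 CPM in sham libraries.

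Transcripts of other tissues were present in single sham libraries. Ucp1, the uncoupling protein of brown fat, was at 0 to 0.134 CPM in PCB 52 libraries, against 0, 355, 12.6, 220, 1.19 and 0.293 CPM in sham libraries 2, 4, 6, 8, 10 and 12. The fatty acid binding protein gene Fabp3 had 2.22 to 4.81 CPM in PCB 52 libraries, against 128 CPM in sham library 4, 34.1 CPM in library 8 and 2.64 to 5.92 CPM in the other sham libraries. Of 20 brown adipocyte genes listed, 18 were in the count table, with summed levels of 1602 to 2570 CPM in PCB 52 libraries and 1657 to 3303 CPM in sham libraries. Of the 9 tested, 8 were below 0 with a median log2 fold change of -0.69, which was -0.16 without sham libraries 4 and 8. Ppargc1a, the coactivator of mitochondrial biogenesis, had a log2 fold change of -1.69 ± 0.48, and -0.64 ± 0.29 without them. Skeletal muscle genes were high in sham library 8 alone, where Acta1 had 310 CPM, Myh4 256 CPM and Ckm 164 CPM. The 18 muscle genes in the table summed to 25.0 to 54.9 CPM in PCB 52 libraries, against 1368 CPM in sham library 8 and 41.2 to 57.1 CPM in the other sham libraries.

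Bladder-type epithelial genes appeared in a different set of sham libraries. Upk1a, a uroplakin of the urothelium, had 0 to 0.278 CPM in PCB 52 libraries, against 30.4 CPM in sham library 4, 17.5 CPM in library 6 and 7.93 CPM in library 10, and at most 0.586 CPM in the other sham libraries. Upk2 was at 0 in all PCB 52 libraries and in sham libraries 2, 8 and 12. A list of 11 urothelial genes, drawn up after these values were seen, summed to 0.567 to 1.89 CPM in PCB 52 libraries and 2.33 to 114 CPM in sham libraries. B cell genes were high in sham libraries 8 and 10. Cd79b, a chain of the B cell antigen receptor that was picked after its values were seen, had at most 0.805 CPM in PCB 52 libraries, against 42.9 CPM in sham library 8, 76.8 CPM in library 10 and at most 1.04 CPM in the other sham libraries. A list of 12 lymph node and B cell genes, also drawn up afterwards, summed to 25.4 to 49.6 CPM in PCB 52 libraries, against 503 CPM in sham library 8, 653 CPM in library 10 and 24.7 to 44.1 CPM in the other sham libraries. The part of these transcripts in other results was not tested.

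**Figure D5:**
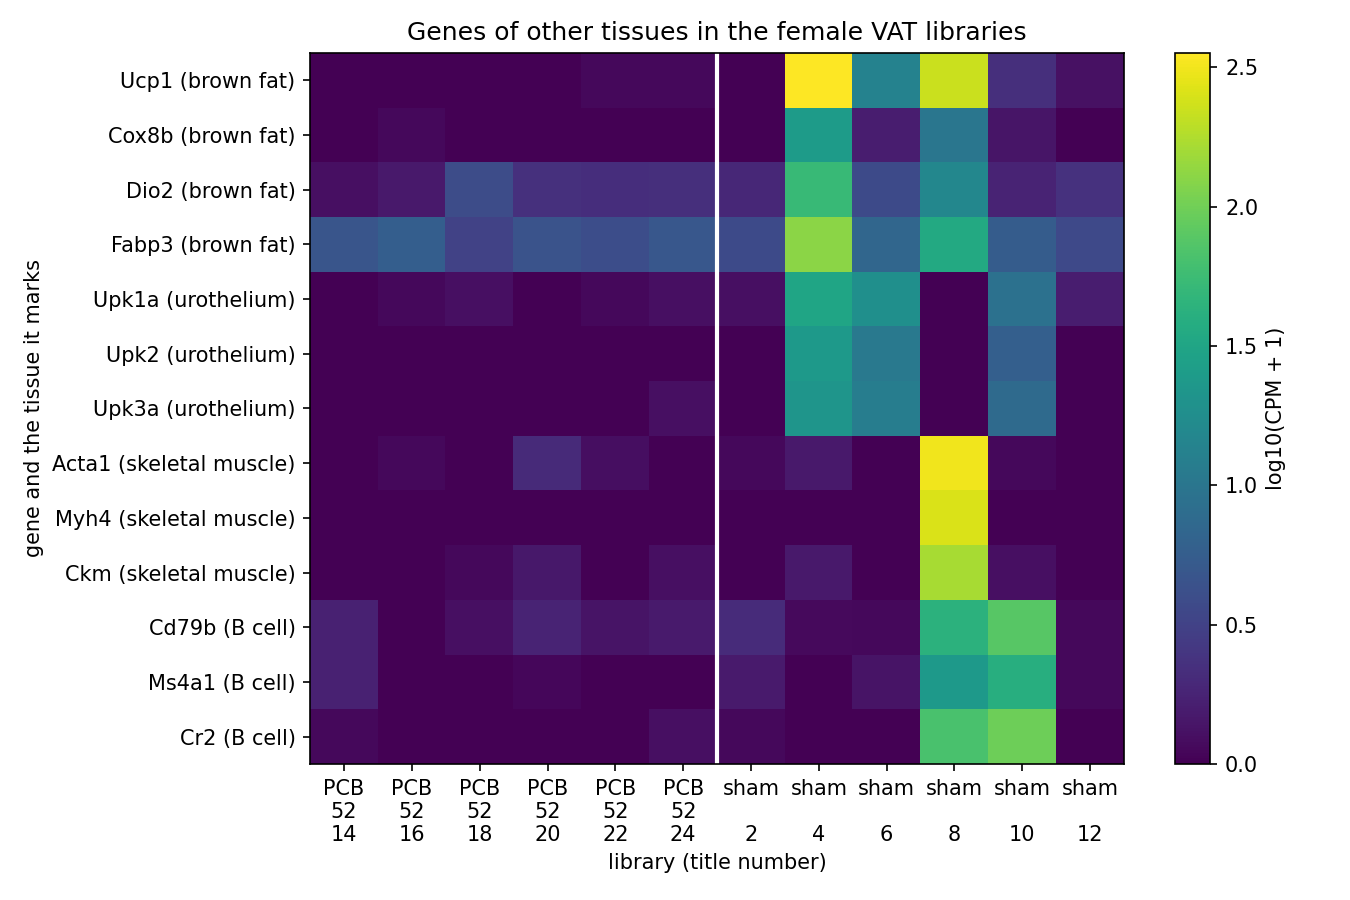
Levels of 13 genes of brown fat, urothelium, skeletal muscle and B cells in each female VAT library, as log10(CPM + 1) in colour, with PCB 52 libraries on the left of the white line and sham libraries on the right. Sham library 4 holds brown fat and urothelial genes, 8 holds brown fat, muscle and B cell genes, 10 holds urothelial and B cell genes and 6 holds urothelial genes and low Ucp1, while the PCB 52 libraries are at or near 0 for most of them.

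Lymphocyte genes and some class II antigen presentation genes varied with sham libraries 8 and 10. Of 7 tested lymphocyte genes, 5 were lower in PCB 52 libraries at an unadjusted p of 0.05, where 5.84% of all genes were, and the median log2 fold change was -0.96. Without sham libraries 8 and 10, 1 was lower at that p, where 3.01% of all genes were, and the median was -0.12. Ciita, the master regulator of class II antigen presentation genes, had 4.02, 12.0 and 17.7 CPM in PCB 52 libraries, against 8.20, 18.96 and 80.1 CPM in sham libraries, and its log2 fold change of -1.54 ± 0.51 was -0.43 without sham libraries 8 and 10. Cd74, the class II invariant chain, had -0.68 ± 0.25, and -0.31 without them. Both belong to the antigen presentation list, where 4 of 17 tested genes were lower and 1 higher at an unadjusted p of 0.05. Of all genes, 5.84% and 3.72% were. Median log2 fold changes of the interferon, macrophage and chemokine lists were 0.23, 0.15 and 0.10. They were 0.18, 0.079 and 0.19 without sham libraries 8 and 10, and 0.061, -0.014 and -0.024 without 4 and 8. The mast cell and neutrophil list had -0.22, and 0.047 without 8 and 10. Tspan33, a tetraspanin known in B cells, had 0.555, 0.844 and 1.98 CPM in PCB 52 libraries, against 1.48, 4.96 and 10.2 CPM in sham libraries. Its high libraries were sham 4, 8 and 10, at 7.96, 9.47 and 10.2 CPM, and its log2 fold change was -2.50 ± 0.55 with all libraries and -0.88 without those 3.

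RT1-A2, a class I histocompatibility gene with near-identical relatives and thus uncertain counts, went the other way. It had 34.3, 109.7 and 131 CPM in PCB 52 libraries, against 30.4, 45.2 and 50.2 CPM in sham libraries (log2 fold change 1.07 ± 0.31). PCB 52 libraries 14, 16, 20 and 24 were high, at 109.6 to 131 CPM, while libraries 18 and 22 lay within the sham range. Without the TMM adjustment, the same high numbers had 43.9 to 100.9 CPM in female BAT, against 17.9 and 24.4 CPM for 18 and 22. In female SAT the values were 102.8 to 123 CPM, against 40.0 and 28.4 CPM. In male VAT, sham libraries 1 and 7 had 166 and 137 CPM, and the other sham libraries 40.6 to 67.8 CPM. High levels thus occurred in sham rats too, and whether they follow the rat was not tested.

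Genes that mark position and stroma were also compared. HOX genes of the posterior groups (9 to 13), which keep the position of a tissue along the body axis and differ between fat depots, formed a list drawn up after their values were seen. All 6 tested members were above 0, where 5719 of all 11143 genes tested were. The median log2 fold change of the list was 0.75, and 0.43 without sham libraries 4 and 8. Summed over the 9 members in the table, PCB 52 libraries held 94.1 to 108.5 CPM and sham libraries 55.1 to 88.6 CPM, with no overlap. Hoxc10 had 20.4, 23.9 and 26.3 CPM in PCB 52 libraries, against 11.1, 16.95 and 18.9 CPM in sham libraries, with no overlap (log2 fold change 0.59 ± 0.14). Of all genes tested, 0.197% were higher with no overlap. Hoxd9 (0.46 ± 0.15, and 0.30 ± 0.13 without sham libraries 4 and 8) and Hoxd10 (1.57 ± 0.52, and 1.05 ± 0.35 without them) were also higher at an unadjusted p of 0.05. At that p, 3.72% of all genes tested were higher. The 14 tested HOX genes of groups 1 to 8 had 7 above 0 and a median of -0.0025. Of 18 progenitor and fibroblast genes, 16 were above 0 with a median of 0.25, which was 0.025 without sham libraries 4 and 8. Cd55 of this list had 84.7, 100.2 and 118 CPM in PCB 52 libraries, against 37.0, 65.8 and 85.0 CPM in sham libraries (log2 fold change 0.69 ± 0.18, and 0.45 ± 0.12 without sham libraries 4 and 8). The mesothelium list, cells of the lining of the abdominal cavity, summed to 551 to 757 CPM in PCB 52 libraries, against 214 to 321 CPM in sham libraries 2, 4 and 8 and 826 to 931 CPM in sham libraries 6, 10 and 12.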

How the data were processed

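RNA was taken from about 100 mg of tissue, and samples with an RNA integrity number under 8 were left out, per the labels' protocols. The submitters' processing notes list HISAT2, FastQC and build rn6. Tool versions, the counting program and its annotation and strand setting are not given here, so overlapping, antisense and near-identical genes have uncertain counts. The authors deposited read counts per gene, with 15319 genes in each table. As deposited, 5 summary lines stand under the genes of the female VAT table, for which its columns were classed as estimated counts. Those lines were dropped, and the gene lines are whole numbers and were used without rounding. NCBI gene numbers gave a symbol for 15230 genes and none for 89, through a RefSeq table of GRCr8. That build differs from rn6, and only promoter windows carry its coordinates.

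Counts were tested in R 4.3.3 with edgeR 4.0.16 (TMM, the default expression filter, robust quasi-likelihood F test, Benjamini-Hochberg adjustment, threshold 0.05). Alternatives used DESeq2 1.42.0, limma 3.58.1 voom, other scaling and filters, and left libraries out. The interaction of treatment with sex or depot was tested in fits of both groups. The script was tested on simulated data. The closest pair of libraries in a group had a chi-square of 11.1 per gene, above sampling noise.

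The text names the 15 genes of smallest p, since under 4 passed the threshold, up to 4 members of each gene list in order of p, fixed adipose and xenobiotic genes, leading genes of sham libraries 4 and 8, and 5 genes of each interaction. A few genes that these rules select are not reported here. Of 42 lists, 39 had a tested member. The members, lists and rules were chosen with earlier results of these data known, and lists carry no test. Values without sham libraries 8 and 10, without 4, 8 and 10, and without 4, 8 and PCB 52 library 20, and DESeq2 without 4 and 8, were added after the data were seen.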

Additional observations from a re-analysis of the deposited data

Results flagged for a closer look

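Among 132 groups of 6 libraries, the 66 genes given with a fold change in 2 groups each, 10 held 1 library whose gap to its nearest neighbour as a share of the group's range was above the 95% critical value of Dixon's test. Chance gives about 1 in 20 such groups, and 4 of the 10 values belonged to sham library 4.

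In the PCB 52 group, library 14 was the highest for Tspan33 at 1.98 CPM and for Tekt3 at 9.50 CPM, library 18 for Errfi1 at 100.5 CPM and library 20 for Sult1a1 at 431.5 CPM. Library 20 was the lowest for Foxo1 at 38.2 CPM. In the sham group, library 4 was the highest for Pdk4 at 263.9 CPM, for Sult1a1 at 307.7 CPM, for Cyp2e1 at 70.2 CPM and for Fabp3 at 128.4 CPM, and library 12 for Errfi1 at 197.9 CPM.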

How the results depend on the processing

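All edgeR and voom alternatives for PCB 52 over sham in female VAT called 0 genes, leaving out each library included. With single libraries left out in turn, 704 genes (without sham library 8) to 1313 genes (without sham library 6) had an unadjusted p of 0.05. With no filter on low counts 1418 genes had that p, and without sham libraries 8 and 10 it was 569. DESeq2 called 51 genes, and 2 without sham libraries 4 and 8, and 37 of the 51 were tested by edgeR, all at an unadjusted p of 0.05. Without sham libraries 4, 8 and 10, 316 genes had that p. Each interaction called 0 genes under its alternatives, except that the one with SAT called 1 gene without SAT sham library 12, with 0 to 1 over the SAT libraries left out in turn. Upper quartile scaling gave 491 higher and 557 lower genes at an unadjusted p of 0.05.

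The 81 values followed were the female VAT fold changes of 66 genes and, for the rest, interaction values. Of these, 21 passed the threshold under at least 1 alternative, each time in DESeq2, and 2 changed sign. DESeq2 was not run for the interactions, so the 21 are among the 66. Gadd45b ran from -0.39 to 0.026 over the libraries left out in turn, and had a log2 fold change of 0.026 without sham library 10 and 0.032 without sham libraries 8 and 10. Sult1a1 ran from -0.46 to 0.040 over them, and had 0.053 without sham libraries 4 and 8, 0.054 in DESeq2 without them, 0.0068 without PCB 52 library 22, 0.040 without sham library 4 and 0.050 without sham libraries 4, 8 and 10; the cause was not tested. Of list medians, 956 values kept within 1 SD of the main value and 19 did not. Among the 19 was the skeletal muscle list at 0.034 without sham libraries 4, 8 and 10. The SD was that of the list's level over the sham libraries, 4 and 8 included, and changes of sign were not counted.

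Title numbers recur across depots, but the labels do not say that a number is 1 rat. Deviations from group means of same-numbered libraries correlated at a median r of 0.110 between VAT and BAT, where 7 of 12 were over 0.1. Between VAT and SAT the median was 0.046, with 3 of 11 over 0.1. For different-numbered libraries of the same treatment, the medians were -0.043 and -0.010. RT1-CE16, given among the other observations, also matched by number. Both are hints from the data that a number may be 1 rat. Without a label for it, the main fits did not treat the libraries as pairs. With the replicate number as a block, the interactions called 0 genes, with 400 (BAT) and 252 (SAT) at an unadjusted p of 0.05, against 397 and 1150 without the block. Genes near the zero-count limit, such as Cyp1a1, cannot be compared at this depth.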

Other observations

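RT1-CE16, a class I histocompatibility gene among the leading genes of sham library 8, was present in some libraries and near 0 in others. Here CPM values use library totals without the TMM adjustment. RT1-CE16 was above 3 CPM in 1 of 6 PCB 52 and 3 of 6 sham libraries of female VAT, PCB 52 library 22 and sham libraries 6, 8 and 10, and in 1 of 5 PCB 52 and 4 of 6 sham libraries of male VAT. The BAT library with the same title number was on the same side of 3 CPM for 12 of 12 numbers, and the SAT library for 11 of 11. In females the lowest value above was 23.2 CPM in BAT and 3.79 CPM in SAT, in sham library 8, and the highest value below was 0.155 CPM in BAT and 0.445 CPM in SAT. In males the sides matched for 11 of 11 numbers in both depots. RT1-A2 had 44.3 CPM in VAT sham library 8 and 140.5 CPM in SAT sham library 8. Counts of these genes are uncertain, since class I genes are near-identical and differ between outbred rats.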
